A study of Homo sapiens with 6 samples.

Results

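A set of 10 genes that mark fibroblasts and mural cells, the cells that wrap vessels, were followed at the trace levels they had in a colorectal cancer line: SPARC, FBLN1, THY1, POSTN, DCN, LUM, PDGFRA, PDGFRB, TAGLN and ACTA2. They were chosen by name, without collagens, and each matched 1 row, which gave 10 of the 31016 genes in the deposited table. The cells were DLD-1, a human colorectal adenocarcinoma line of epithelial origin. Of 6 libraries, 3 came from cells given TGF-β (TGFb 1, 2 and 3) and 3 from cells given TGF-β together with TFA, the total flavone extract of Abelmoschus manihot (TGFb_TFA 1, 2 and 3). The treatment field gives 24, 25 and 26 hours for replicates 1, 2 and 3 of both groups, whereas the series' design names 24 hours for TGF-β. All 6 libraries therefore carried TGF-β, and no untreated cells were analysed here. The labels do not say whether replicates were separate cultures, so the p-values measure the spread between these libraries, which may be technical.

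As background, TGF-β is the classic signal that turns fibroblasts into contractile myofibroblasts and pushes epithelial cells towards a mesenchymal state. Stromal cells lay down matrix proteins and proteoglycans, sense platelet-derived growth factors through a pair of receptors, and contract through smooth muscle actin and its partners. In tumour tissue these genes come mostly from the stroma, and a cell line grown alone is expected to hold little of them.

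In short, the 10 genes fell into 4 patterns. SPARC was the most abundant and lay higher in every TFA library than in every TGF-β library. FBLN1 and THY1 were at 0 in TGFb 1 and at similar levels in the other 5 libraries. DCN, LUM and POSTN had counts in TGFb_TFA 2 or TGFb_TFA 3 and in no other library. TAGLN and ACTA2 were present in all 6 libraries, and the receptors PDGFRA and PDGFRB stayed at or under 21 counts. None of the 7 genes high enough to test passed the test over all genes.

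Promoter sequence was at hand for 6 of the 10 genes (8 windows of 250 bases before a start, RefSeq, GRCh38.p14). Of these, 3 windows are shown because their genes stand for the main patterns: a contractile gene seen in all libraries, the most abundant matrix gene, and a matrix gene absent from TGFb 1. The capitals mark CArG-like boxes in ACTA2 (CC, 6 bases of which at least 5 are A or T, then GG), the motif GGAGGA in SPARC and the motif CAGAC, on either strand, in FBLN1. Serum response factor, which drives contractile genes, binds CArG boxes. CAGAC holds the core that SMAD proteins, the mediators of TGF-β, recognise.
ACTA2, inner start, chr10:88952774-88953023, minus strand: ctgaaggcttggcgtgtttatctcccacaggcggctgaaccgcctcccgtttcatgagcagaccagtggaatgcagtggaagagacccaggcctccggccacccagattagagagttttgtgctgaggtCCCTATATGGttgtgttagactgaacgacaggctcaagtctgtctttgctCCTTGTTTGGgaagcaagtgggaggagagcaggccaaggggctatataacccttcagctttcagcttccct
SPARC, chr5:151686916-151687165, minus strand: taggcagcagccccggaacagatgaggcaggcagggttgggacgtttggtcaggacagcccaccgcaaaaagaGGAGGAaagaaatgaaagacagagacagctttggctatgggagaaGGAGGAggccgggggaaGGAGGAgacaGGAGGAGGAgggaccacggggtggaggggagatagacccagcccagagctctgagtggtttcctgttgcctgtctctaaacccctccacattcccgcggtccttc
FBLN1, chr22:45502633-45502882, plus strand: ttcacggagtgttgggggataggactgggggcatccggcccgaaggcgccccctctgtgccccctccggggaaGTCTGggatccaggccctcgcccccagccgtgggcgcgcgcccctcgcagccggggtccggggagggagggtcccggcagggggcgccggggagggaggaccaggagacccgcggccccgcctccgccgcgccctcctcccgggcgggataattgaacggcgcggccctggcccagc

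The ACTA2 window held 2 CArG-like boxes, which begin 121 and 71 bases before the start, and 7.04% of all 35116 windows of this length held at least 1. None of the 8 windows held a perfect CArG box, found in 1.16% of all windows. TAGLN, THY1, DCN and LUM had no window and were not searched. GGAGGA occurred 5 times in the SPARC window, overlapping itself in the pair nearest the start, and 31.8% of all windows held it. Unmarked, it also began 83 and 43 bases before the start in the FBLN1 window and 51 bases before it in the ACTA2 window. The FBLN1 window held CAGAC once, 177 bases before the start, and the SPARC window did not. The ACTA2 window shown held it too, unmarked, 192 and 84 bases before the start. The shorter core within CAGAC was not searched for in any window. CAGAC was in 38.0% of all windows, so its presence is common. These matches describe letters and do not show binding.

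The library TGFb 1 stood apart, with 0 counts for 190 genes that had at least 20 in each other library, markers of pluripotent cells among them. Whether all RNA of the 6 libraries came from DLD-1 cells was not tested, so each level is that of a library and not of a known cell type.

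Levels were low throughout. SPARC had a mean of 1.41 FPKM (fragments scaled to gene length and library size) over the 6 libraries, and 52.1% of the 18265 tested genes had a higher mean. The other 9 genes had means from 0.0027 FPKM (POSTN) to 0.405 FPKM (ACTA2), against a median of 1.60 FPKM over tested genes. Totals per library were 60361756 to 68745953 estimated counts, and the 10 genes together took 214 to 1707 of them. In these data 1 sequenced fragment probably adds about 4 counts, since 1032 to 1271 genes per library had a count of 4. A count of 3 was held by 601 to 685 genes per library and a count of 5 by 345 to 396. A count of 0 allows up to 3 fragments, here 12 counts, or 0.172 CPM (counts scaled to library size by TMM) in TGFb 1 and 0.222 CPM in TGFb_TFA 3; these limits cover counting error only. In the labelled cell type, 9 of 10 epithelial markers were in the table, and their summed level ran from 6513 to 7953 CPM with TGF-β and from 6015 to 7710 CPM with TFA added. Most of this sum was KRT8 and KRT18, and single markers were less even. In TGFb_TFA 3, CDH1 was at 78.7 CPM (132 to 185 elsewhere) and VIL1 at 0.315 CPM (1.70 to 2.29 elsewhere). KRT20 was highest in that library by CPM (184, against 119 to 149 elsewhere) and by FPKM. EPCAM (571 CPM, against 521 to 564 elsewhere) and KRT8 (3396 CPM, against 3395 in TGFb 2) were highest there by CPM only. In FPKM, EPCAM was lowest there. The 10 stromal genes summed to 3.07, 9.75 and 12.7 CPM with TGF-β and to 14.0, 17.03 and 31.6 CPM with TFA added. In bulk RNA, fewer cells of a type and less RNA per cell cannot be told apart.

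**Figure D1:**
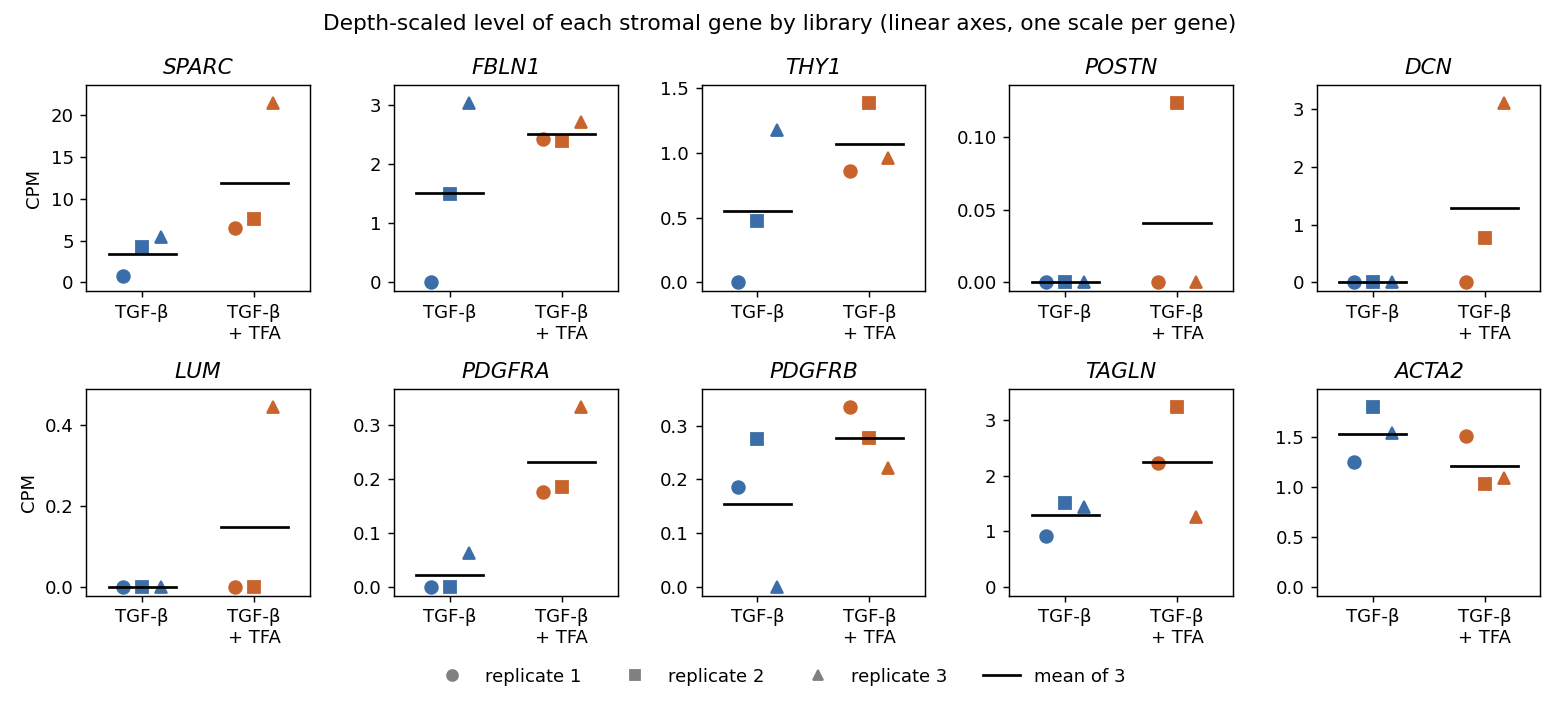
Level of each of the 10 genes in CPM (linear vertical axes that differ between genes), by group; each symbol is 1 library, the symbol shape gives the replicate, and the bar is the mean of 3. SPARC in TGFb_TFA 3 reached 21.5 CPM, and FBLN1 and THY1 lay at 0 in TGFb 1.

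SPARC encodes a secreted glycoprotein that binds calcium and collagen and shapes matrix assembly. It had 51, 274 and 351 counts in TGFb 1, 2 and 3, and 405, 495 and 1160 in TGFb_TFA 1, 2 and 3. The groups did not overlap, TGFb 1 was far below the other TGF-β libraries, and TGFb_TFA 3 far above the other TFA libraries. In FPKM the means were 0.664 ± 0.474 with TGF-β and 2.16 ± 1.31 with TFA added (SD, n = 3). On the log2 scale SPARC differed by 1.78 (SE 0.73), and the 95% interval of the edgeR fit ran from 0.09 to 3.47. Its unadjusted p was 0.0412, and adjustment over all tested genes (edgeR quasi-likelihood test, Benjamini-Hochberg) gave 0.9997. SPARC therefore did not pass. Without TGFb 1 the value was 1.301 (interval -0.04 to 2.64), and without TGFb_TFA 3 it was 1.03 (interval -0.50 to 2.57). With both left out it was 0.54 (interval 0.02 to 1.06). The SPARC locus (ENSG00000113140, chromosome 5, 151661096 to 151686975, minus strand, GRCh38 as in the table) overlaps the antisense gene CLMAT3 by 381 exon bases in GENCODE 29, and CLMAT3 had 0 to 17 counts per library.

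FBLN1 encodes fibulin-1, a secreted protein of elastic fibres and basement membranes. Its counts were 0, 98 and 196 with TGF-β and 152, 155 and 146 with TFA added. The TFA libraries lay between TGFb 2 and TGFb 3, and TGFb 1 alone stood apart. The means were 0.184 ± 0.188 FPKM and 0.300 ± 0.0053 FPKM (SD, n = 3). The fitted log2 fold change of 0.73 (interval -1.85 to 3.32) fell to 0.15 (interval -0.64 to 0.94) once TGFb 1 was left out, and was 1.71 without TGFb 3. FBLN1 (ENSG00000077942) lies on chromosome 22 from 45502238 to 45601135 on the plus strand, overlaps no other gene of the table, and shared none of its 75-base words with transcripts of other genes.

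THY1 encodes a surface glycoprotein of fibroblasts and neurons that is also displayed by pluripotent stem cells. It had 0, 31 and 76 counts with TGF-β and 54, 90 and 52 with TFA added. Here too TGFb 1 was at 0, and the other 5 libraries overlapped. Group means were 0.0710 ± 0.0769 FPKM and 0.135 ± 0.0431 FPKM (SD, n = 3). The log2 fold change of THY1 was 0.96 (interval -1.57 to 3.49) with all libraries and 0.38 (interval -0.76 to 1.53) without TGFb 1, and 2.14 without TGFb 3. THY1 (ENSG00000154096, chromosome 11, 119415476 to 119424985, minus strand) shared 7.75% of its 75-base words with AP003396.

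The absence from TGFb 1 was not limited to FBLN1 and THY1. The 190 genes with this pattern were counted at a minimum chosen after the values were seen. The same pattern around any other library was met by 4 to 13 genes. Members of the fixed lists that followed it included VCAN, a large matrix proteoglycan (0 against 160, 256, 286, 277 and 261 counts), and FSTL1, a secreted relative of SPARC (0 against 260, 261, 370, 403 and 425 counts). The gene with the highest counts was LIN28A, an RNA-binding protein of pluripotent cells, at 0 in TGFb 1 and at 1471, 1251, 1441, 1420 and 1452 in the others. A list of 12 markers of pluripotent stem cells, made after this was seen, was in the table in full. Its summed level was 6.55 CPM in TGFb 1, 73.2 and 68.5 CPM in TGFb 2 and 3, and 65.9 to 82.5 CPM with TFA added. In TGFb 1, 8 of these 12 markers were at 0: LIN28A, LIN28B, SOX2, NANOG, DPPA4, DPPA2, L1TD1 and ZFP42. Without TGFb 1 the list's median log2 fold change was 0.02 over 12 tested genes, against 0.57 with it. What most of these markers shared with FBLN1 and THY1 was thus the absence from TGFb 1. Between TGFb 2 and TGFb 3 the markers differed in direction. FBLN1 rose from 98 to 196 counts and THY1 from 31 to 76, while the summed markers went from 73.2 to 68.5 CPM. Of that sum, LIN28A held 22.5 and 19.3 CPM. Single markers went either way. NANOG rose from 28 to 68 counts, POU5F1 from 322 to 504, LIN28B from 285 to 376 and DPPA2 from 0 to 30, as FBLN1 and THY1 rose. SOX2 fell from 261 to 164 counts, and LIN28A, DPPA4, L1TD1, ZFP42, TDGF1 and DNMT3B also fell. SALL4 had 243 and 244. The part of these markers in the levels of FBLN1 and THY1 was not tested.

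**Figure D2:**
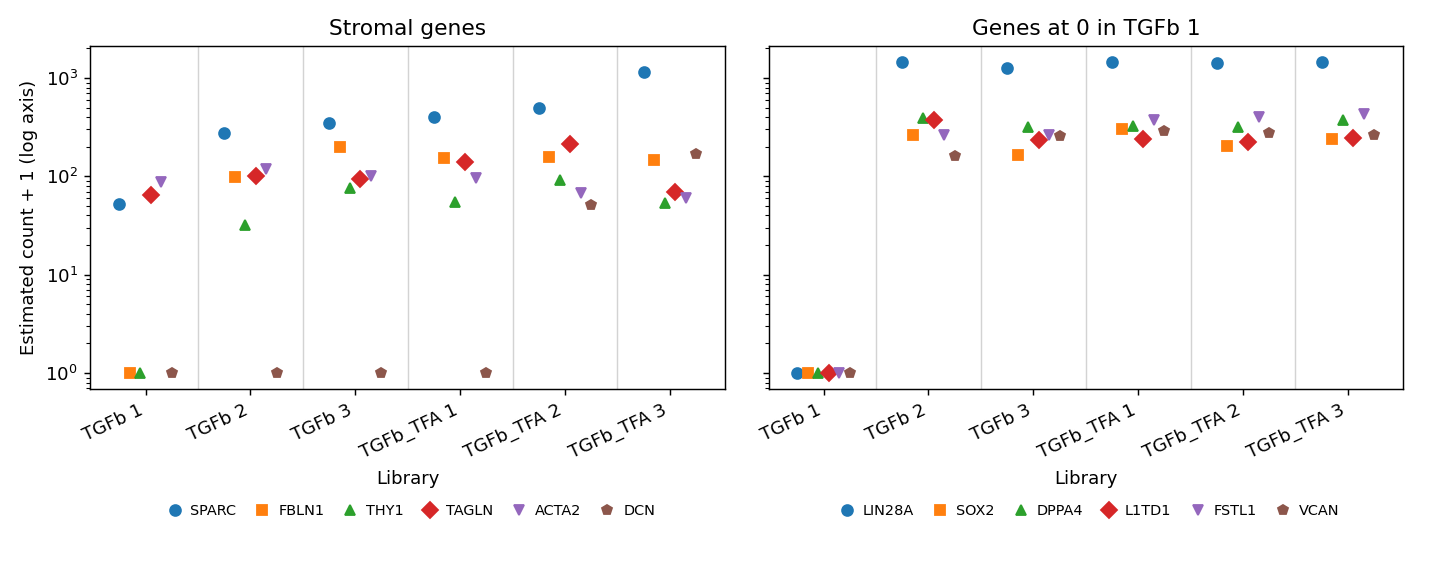
Estimated counts plus 1 (log axis) by library for 6 of the stromal genes (left) and for 6 genes at 0 in TGFb 1 (right); each point is 1 gene in 1 library, and points are shifted sideways for legibility. FBLN1 and THY1 share the absence from TGFb 1 with LIN28A, SOX2, DPPA4, L1TD1, FSTL1 and VCAN, whereas TAGLN and ACTA2 do not.

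Decorin (DCN) and lumican (LUM) are small leucine-rich proteoglycans that bind collagen fibrils and set their spacing, and periostin (POSTN) is a matricellular protein of remodelling stroma. DCN had 0 counts in TGFb 1, 2 and 3 and in TGFb_TFA 1, and 50 and 168 in TGFb_TFA 2 and 3. LUM had 24 counts in TGFb_TFA 3 and 0 in the other 5 libraries, and POSTN had 8 counts in TGFb_TFA 2 alone, under the limit of 12 that a count of 0 allows. These 3 genes did not reach the filter on low counts and were not tested with all libraries, and no fold is given. Exactly 2 genes of the table, DCN and the fibrillar collagen COL3A1, were at 0 in those 4 libraries and at 20 counts or more in TGFb_TFA 2 and 3. COL3A1 had 84 and 202 counts there. LUM was among 10 genes with at least 20 counts in TGFb_TFA 3 and 0 elsewhere, as was fibromodulin (FMOD), a related proteoglycan with 132 counts, and the cartilage matrix gene COMP. DCN (ENSG00000011465, 91140484 to 91182817) and LUM (ENSG00000139329, 91102629 to 91111494) are close neighbours on the minus strand of chromosome 12. POSTN (ENSG00000133110) lies on chromosome 13 from 37562583 to 37598844, also on the minus strand. DCN, LUM and POSTN shared no 75-base word with transcripts of other genes.

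The receptors for platelet-derived growth factors, which stromal cells use to grow and migrate, were near the limit of detection. PDGFRA had 0, 0 and 4 counts with TGF-β and 11, 12 and 18 with TFA added, so the groups did not overlap. The TGF-β side rests on 4 counts in all, about 1 fragment. The fitted log2 fold change of PDGFRA, 3.39 (interval 0.47 to 6.30), therefore rests on about 1 fragment on that side. Its unadjusted p was 0.0282 and its adjusted p 0.9997 (edgeR quasi-likelihood test). After division of the counts by 4, PDGFRA and PDGFRB no longer reached the filter. Leaving out 1 library at a time gave PDGFRA an unadjusted p from 0.00794 (without TGFb 3) to 0.107 (without TGFb_TFA 3, edgeR quasi-likelihood test). It exceeded 0.05 in all such fits but the first. In that fit the remaining TGF-β libraries were at 0. PDGFRA then passed the filter only through TFA libraries and had to come out higher. PDGFRB had 13, 18 and 0 counts with TGF-β and 21, 18 and 12 with TFA added, with overlapping groups and a log2 fold change of 0.85 (interval -1.65 to 3.34), which was 0.24 without TGFb 3 and 1.55 without TGFb 2. PDGFRA (ENSG00000134853) lies on chromosome 4 from 54229280 to 54281977 on the plus strand. It shared 14.7% of its 75-base words with a readthrough transcript, AC058822. PDGFRB (ENSG00000113721, chromosome 5, 150113839 to 150155860, minus strand) shared none.

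Of the contractile genes, TAGLN encodes transgelin, an actin-binding protein of smooth muscle, and ACTA2 encodes smooth muscle alpha-actin, the usual myofibroblast marker. TAGLN had 63, 99 and 93 counts with TGF-β and 140, 210 and 68 with TFA added. TGFb_TFA 3 fell within the TGF-β range, and the other TFA libraries lay above it. Means were 0.172 ± 0.0429 FPKM and 0.303 ± 0.156 FPKM (SD, n = 3), with a log2 fold change of 0.81 (interval -0.11 to 1.72). Without TGFb_TFA 3 the TAGLN value was 1.09 (interval 0.31 to 1.87, unadjusted p of 0.0126, adjusted p of 0.9992, edgeR quasi-likelihood test), and without TGFb_TFA 2 it was 0.43.

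ACTA2 had 87, 118 and 100 counts with TGF-β and 95, 67 and 59 with TFA added, and was the only tested gene of the 10 with a fitted value below 0. Its means were 0.457 ± 0.0798 FPKM and 0.353 ± 0.0946 FPKM (SD, n = 3), and its log2 fold change was -0.33 (interval -1.02 to 0.35). The groups overlapped, and the interval holds 0. Both genes share exons with genes on the other strand. TAGLN (ENSG00000149591, chromosome 11, 117199370 to 117207464, plus strand) shares 446 of 3917 exon bases with PCSK7, which had 1126 to 1693 counts. ACTA2 (ENSG00000107796, chromosome 10, 88935074 to 88991339, minus strand) shares 380 of 2976 with FAS, at 1228 to 1949 counts, and 516 with ACTA2-AS1, at 21 to 56. The libraries kept strand, but the sources used here do not say whether counting used it, so TAGLN and ACTA2 counts are uncertain to that extent. No 75-base word of ACTA2 was found in transcripts of the cytoplasmic actins ACTB and ACTG1, whose means were 135 and 225 FPKM.

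**Figure D3:**
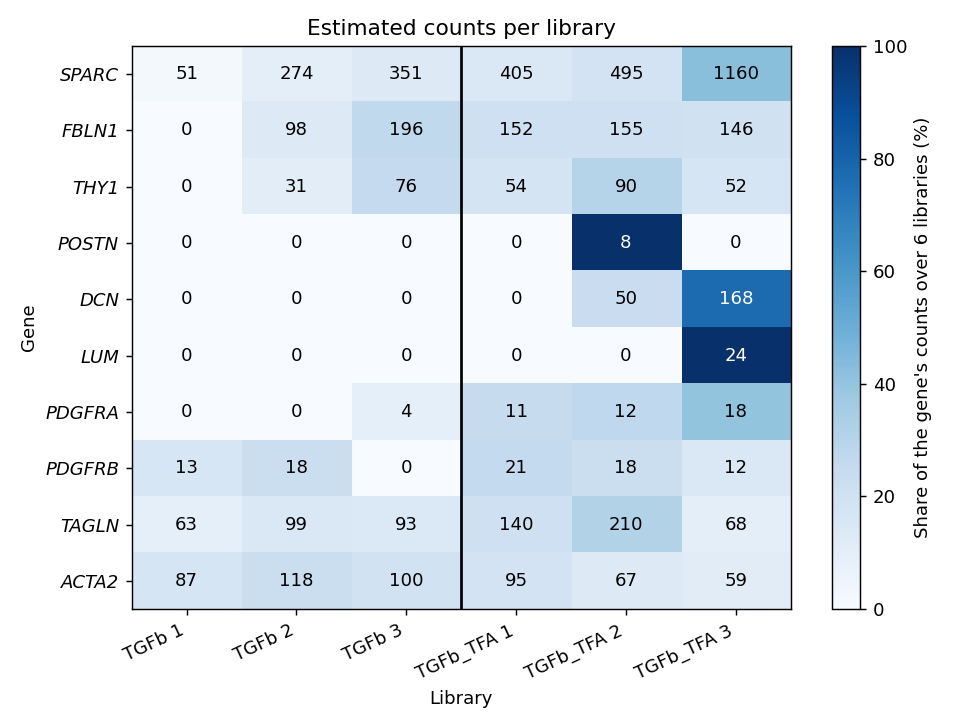
Estimated counts of the 10 genes (rows) in the 6 libraries (columns); the number in each cell is the count and the shade is that library's share of the gene's counts. DCN, LUM and POSTN fill only TGFb_TFA 2 and TGFb_TFA 3, and FBLN1 and THY1 are empty only in TGFb 1.

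Over the whole comparison, 0 of the 7 tested stromal genes were called at an adjusted p under 0.05 in edgeR, where 0.0109% of all 18265 tested genes were called. At an unadjusted p under 0.05, SPARC and PDGFRA were higher with TFA, 2 of 7, against 1.07% of all tested genes in that direction, and DESeq2 called 0 of the 8 that it gave an adjusted p (LUM and POSTN had none). SPARC and PDGFRA were also the 2 genes whose groups did not overlap with TFA higher, against 4.58% of all tested genes. PDGFRA passed the filter on low counts only through its TFA libraries and so had to differ, which leaves SPARC alone in both counts. Fitted values were above 0 for 6 of 7, with a median of 0.85, while 51.9% of all tested genes were above 0 at a median of 0.01. The 7 tested genes are not the whole set, since genes low in all but 1 or 2 libraries were left out. The genes were picked with results of these data known, and the counts describe the set only.

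**Figure D4:**
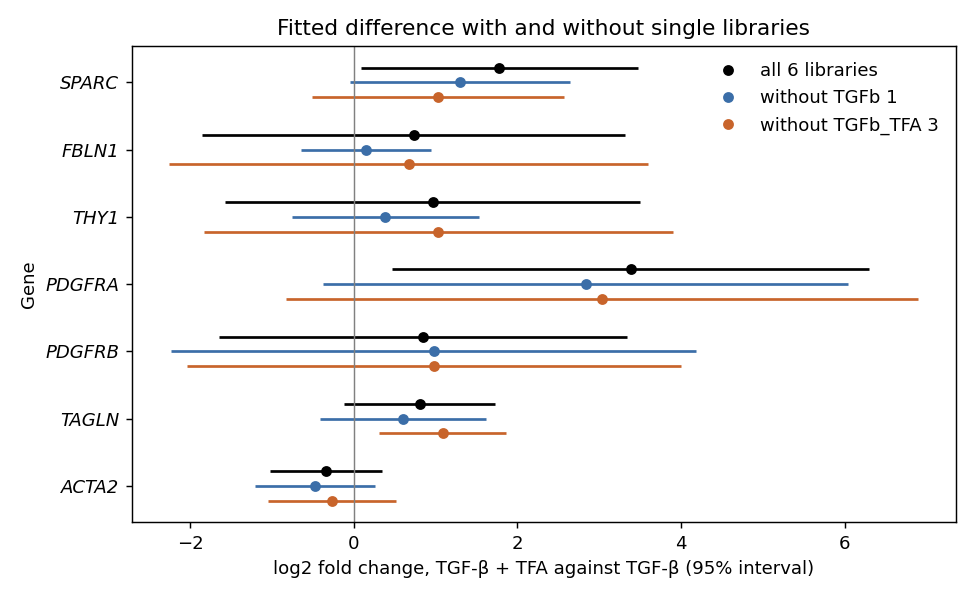
Fitted log2 fold change (TFA added, relative to TGF-β only) of the 7 tested genes, with 95% intervals, from all 6 libraries (black), without TGFb 1 (blue) and without TGFb_TFA 3 (orange). Leaving out TGFb 1 brings FBLN1 to 0.15 and narrows its interval, and leaving out TGFb_TFA 3 brings SPARC to 1.03.

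Whether the genes varied together was read within each group from the order of the libraries by CPM. With TGF-β alone, 5 of the 7 tested genes (SPARC, THY1, FBLN1, TAGLN and ACTA2) were lowest in TGFb 1, which was the lowest library for 34.4% of all tested genes. SPARC, THY1 and FBLN1 shared the whole order, with TGFb 1 lowest, TGFb 2 between and TGFb 3 highest. With TFA added, SPARC and PDGFRA were the 1 pair of tested genes that shared the whole order by CPM. The TMM factor was 0.895 for TGFb_TFA 3, and 1.035 and 1.042 for TGFb_TFA 1 and 2. In FPKM and in unscaled counts, FBLN1, THY1 and TAGLN also shared an order, with TGFb_TFA 3 lowest and TGFb_TFA 2 highest. PDGFRB and ACTA2 shared another there, with TGFb_TFA 3 lowest and TGFb_TFA 1 highest. Which genes shared an order with TFA added thus depended on the scaling. By CPM, SPARC, FBLN1 and PDGFRA were highest in TGFb_TFA 3, TAGLN and THY1 in TGFb_TFA 2, and PDGFRB and ACTA2 in TGFb_TFA 1. For FBLN1 this held by CPM only. In TGFb_TFA 3 its count of 146 (152 and 155 in the other TFA libraries) and its FPKM were the lowest of the group. TGFb_TFA 3 was the highest library for 39.6% and the lowest for 44.8% of all tested genes. Of the 21 pairs of tested genes, 4 had the same order of libraries by CPM with TGF-β, the fourth being TAGLN with ACTA2. With TFA added 1 pair did by CPM. Tied libraries share no order. With 3 libraries per group these orders are a description.

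As a measure over both groups, deviations of log2(CPM + 1) from the group means were compared over the 6 libraries, given without a test. Pearson's r was 0.92 between THY1 and FBLN1, 0.79 between SPARC and FBLN1 and 0.63 between SPARC and THY1. Without TGFb 1 these values were 0.77, 0.36 and 0.04. Without TGFb_TFA 3 they were 0.93, 0.98 and 0.91. The median over all 21 pairs was 0.25, without TGFb 1 it was -0.23, and without TGFb_TFA 3 it was 0.51. SPARC and TAGLN had -0.17 with all libraries, and 0.79 without TGFb_TFA 3, the library where SPARC was highest and TAGLN lowest of its group. The pairs of SPARC with THY1 and with FBLN1 thus fell without TGFb 1, and THY1 with FBLN1 stayed high. By the fixed rule, the genes most like the summed 10 were AC011497 (ENSG00000269374), AL158801 (ENSG00000279392), EFR3B, PP7080 and CTU2, with r from 0.993 to 0.999 over 6 libraries. Of 17266 candidate genes, 361 exceeded 0.9.

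Relatives of the 10 genes were taken from fixed lists, and edgeR called 0 genes in any of them. Their counts at an unadjusted p under 0.05 are all of genes higher with TFA and stand against the 1.07% of all tested genes given above. That share is of the fit on all 6 libraries, and none was taken for fits with libraries left out. Among 8 fibrillar and type VI collagens, the fibre proteins that decorin and lumican bind, 7 were tested and 5 had an unadjusted p under 0.05. All 7 were fitted above 0 (median 2.48). Without TGFb 1 the count was 7 of 8, with COL3A1 now tested. COL3A1 was at 0 in all TGF-β libraries and passed the filter only through TFA libraries, so it had to come out higher. COL1A1 had 4, 76 and 49 counts with TGF-β and 59, 390 and 437 with TFA added, and COL1A2 had 0, 88 and 87 against 90, 510 and 545. Both were far higher in TGFb_TFA 2 and 3, the libraries that held DCN, than in TGFb_TFA 1. Among 9 other small leucine-rich proteoglycans in the table only OGN was tested (log2 fold change 0.99). In the SPARC family, 4 of 6 were tested and 1 (SPOCK2, 1.62) had an unadjusted p under 0.05, or 2 of 4 without TGFb 1. Of 13 fibulin and elastic fibre genes, 9 were tested and 1 (FBN1, 0.83) reached that level, and 0 did without TGFb 1 and TGFb_TFA 3.

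The PDGF ligands PDGFA, PDGFB and PDGFC had means of 0.375, 1.59 and 0.674 FPKM and log2 fold changes of 0.04, -0.08 and -0.28. PDGFD, the ligand that prefers PDGFRB, had 0 counts in all TGF-β libraries and 14, 12 and 16 with TFA added, near the limit of 12 that a count of 0 allows. It passed the filter only through the TFA libraries, so no test of it is given. KIT, a receptor kinase of the same class, was far more abundant than either PDGF receptor at a mean of 28.99 FPKM and had a log2 fold change of -0.03. Of 15 smooth muscle contractile genes, 11 were tested and only the myosin light chain MYL9 had an unadjusted p under 0.05 (1.31); without TGFb 1, 0 of 12 tested did. Their most abundant members, CNN3 and TAGLN2, are expressed outside smooth muscle as well, and TAGLN2 had a log2 fold change of 0.0031 (SE 0.18). ACTG2, the enteric smooth muscle actin, had at most 12 counts. Of the regulators of contractile genes, SRF, MRTFA and MRTFB were tested, with a median of -0.04 and none at an unadjusted p under 0.05. Among 7 pericyte genes (8 rows, since RGS5 has a pair of identifiers), 6 rows were tested with a median of 0.34, and none reached that level. Of 11 matricellular genes, all tested, 1 (CTHRC1, 0.49) reached it, and TGFBI, the paralog of periostin and a TGF-β target, had a mean of 12.1 FPKM and had a log2 fold change of -0.12. Of 10 other fibroblast genes, 6 were tested, and 3 had an unadjusted p under 0.05: VIM, the intermediate filament vimentin (2.17), MMP2, a matrix protease (2.48), and PRRX1, a mesenchymal transcription factor (0.99). VIM had 87, 238 and 280 counts with TGF-β and 803, 1300 and 459 with TFA added. Its highest library was thus TGFb_TFA 2, not TGFb_TFA 3 as for SPARC. Without TGFb 1, 1 of these 10 genes reached that level.

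Markers of other cell types were also at trace levels. Endothelial markers (7 of 8 in the table, 4 tested) summed to 1.08 to 2.00 CPM with TGF-β and 2.00 to 3.78 CPM with TFA added. Their defining gene CDH5 had counts in TGFb_TFA 3 alone (8), and VWF had 0 in TGFb 1. Haematopoietic markers (7 of 10) summed to 1.15 to 1.42 CPM and 1.20 to 2.44 CPM. Adipocyte markers (3 of 5, 2 tested) summed to 0.0917 to 0.355 CPM with TGF-β and 0.416 to 0.685 CPM with TFA added, without overlap. Hepatocyte markers (5 of 6) summed to 3.46 to 5.01 CPM and 2.79 to 3.72 CPM, most of it SERPINA1. The synaptic vesicle gene SYT1, a neural marker, had 0 counts in TGFb 1, 52 and 61 in TGFb 2 and 3, and 55, 40 and 58 with TFA added, the pattern of FBLN1 and THY1. Skeletal and cardiac muscle markers (5 of 7) summed to 2.22 to 3.09 CPM and 2.49 to 3.82 CPM, most of it MB. The part of these markers in the levels of the 10 genes was not tested.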

How the data were processed

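Poly(A) RNA of 6 DLD-1 libraries was analysed from 1 table of the series. The authors deposited estimated counts and FPKM per gene and library; per the submitters' processing notes, cutadapt 1.9, HISAT2 2.0.4, StringTie 1.3.4d and GRCh38 were used, with no role given. Whether molecular identifiers removed duplicates, and whether counting used strand, was not stated in the sources used. Deposited estimated counts were whole numbers and were treated as counts, although they seem derived from coverage. edgeR 4.0.16 (R 4.3.3) fitted genes passing filterByExpr with TMM scaling and group as the only term (quasi-likelihood test, 2-sided, Benjamini-Hochberg over 18265 genes, threshold 0.05); the code was tested on simulated data. SE is the log2 fold change over the square root of F. Alternatives used DESeq2 1.42.0, limma 3.58.1 on log2(FPKM + 0.5, 0.1 or 1) for genes at 0.1 FPKM or more in at least 3 libraries, other filters, counts divided by 4, a replicate block, and left-out libraries. Words of 75 bases were compared with GENCODE 29 transcripts on both strands. The genes named were the 10 members, the called or most abundant members of fixed lists, overlapping genes and close paralogs, and the 5 genes with a mean of at least 0.05 FPKM whose deviations correlated best with the summed CPM. Members and lists were chosen with earlier results of these data known; other names, such as PDGFD, COMP and LIN28A, were chosen after their values were seen. The summed level of a further marker list is not reported here.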

Additional observations from a re-analysis of the deposited data

How the results depend on the processing

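Each of the 7 tested stromal genes kept its direction, and none was called, in all alternatives that could test it (15 each, and 11 for PDGFRA and PDGFRB). DESeq2 called 16 genes over the whole table, against 2 by edgeR. It put 4 stromal genes at an unadjusted p under 0.05, since it also tested DCN and LUM. Of these, DCN and LUM were at 0 in all TGF-β libraries and PDGFRA had counts in TGFb 3 only. They could hardly come out lower with TFA, and the share of all genes at that level in DESeq2 was not taken. SPARC alone reached it with limma-trend on FPKM (each of the 3 pseudocounts) and with the counts divided by 4. PDGFRA and PDGFRB did not reach the filter of those fits. The median over tested stromal genes was 1.39 with DESeq2 and 1.36 with no filter, both of which add DCN, LUM and POSTN. On log2(FPKM + 0.1), log2(FPKM + 0.5) and log2(FPKM + 1) the median was 0.55, 0.24 and 0.15. These scales shrink low genes, and the medians are over 5 genes, without PDGFRA and PDGFRB. With TGFb 1 and TGFb_TFA 3 left out together the median was 0.54. Other causes were not tested. Leaving out 1 library gave 1 to 3 genes called and 1 to 3 stromal genes at an unadjusted p under 0.05. The share of all genes at that level was not taken for these fits. Medians then ran from 0.77 (without TGFb_TFA 2) to 1.93 (without TGFb 3), with 1.24 without TGFb 2. DCN passed the filter in 4 of these fits, only through TFA libraries, so it had to come out higher there. The same held for PDGFRA without TGFb 3, where the remaining TGF-β libraries were at 0. Of the fixed lists, collagens at an unadjusted p under 0.05 numbered 7 of 8 without TGFb 1 and 4 of 7 without TGFb 1 and TGFb_TFA 3. The 8 include COL3A1, which passed the filter only through TFA libraries, and the share of all genes in these fits was not taken. Deviations of same-numbered libraries correlated at 0.04, -0.12 and -0.13, and those of other pairs at -0.136 to 0.209. With 3 libraries per group these values cannot tell whether the numbers pair the libraries. With a replicate block 1 gene was called, and the stromal median was 1.60. SPARC then had 1.97 (interval 0.87 to 3.07). Its unadjusted p was 0.00479 and its adjusted p 0.99998 (edgeR quasi-likelihood test). Depth limits POSTN, LUM, PDGFRA and PDGFRB, each at 24 counts or fewer per library.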
